A study of Oryzias latipes with 6 samples.

Results

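Cluster 8 is the group of nuclei in which genes of red blood cells and genes of blood vessel endothelium were both at their highest in a single-nucleus RNA-seq survey of the medaka brain. Its members are the nuclei that the authors placed in their cluster 8, for which they deposited 1 table comparing the 2 lineages. From the arithmetic of that table, the cluster held a calculated 370 of 7512 nuclei. The survey covered 6 whole brains, each from a 6-month-old adult male medaka (Oryzias latipes) of the F1 generation. The BaP lineage was 3 fish whose parents spent 21 days in water with 1 µg/L of BaP. BaP is benzo[a]pyrene, a hydrocarbon of fused aromatic rings found in soot and tar. The control lineage was 3 fish whose parents spent the same time in solvent. All 6 fish were themselves reared in clean water, so the comparison concerns exposure of the parents and not of the fish measured. No strain or genotype is named in the labels.

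In fish, mature red blood cells keep a nucleus, so they can appear in a nuclear preparation along with the cells of the vessel wall. Erythroid nuclei are known for transcribing globin genes, the genes of heme synthesis and the membrane proteins that carry gases and ions. Brain endothelial cells depend on vascular endothelial growth factor (VEGF) receptors, are sealed by claudin-5 junctions, and carry the export pumps and transporters of the blood-brain barrier under Wnt signaling.

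The authors' deposited tables give, for each of 14 clusters and 24365 genes, a log2 fold change, a log2 mean level, a p-value and an adjusted p-value, with no value for a single fish. Differences between the lineages therefore come without an error over fish, and their p-values seem to count each nucleus as a replicate. In each table the genes without counts share a floor, and the level of a gene is given here as its mean CPM above that floor, where CPM is a count relative to the library total. The libraries read the 3' end of transcripts, and levels were not divided by gene length. Mean levels, counts and numbers of nuclei per lineage were calculated from the tables under assumptions given with the processing. Prior counts in the deposited fold changes draw genes of few counts toward 0, so a gene's CPM in the lineages can differ by more than its fold change says. Genes are named as called, higher or lower, for an adjusted p under 0.05 in the authors' column. A positive fold change means a higher level in the BaP lineage, which was taken from the group codes in the table names.

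Cluster 8 held a calculated 227 of 5083 BaP-lineage nuclei, a share of 4.47% (exact binomial 95% interval 3.91 to 5.07). It held 143 of 2429 control-lineage nuclei, a share of 5.89% (interval 4.98 to 6.90). The intervals cover counting error only. Shares per fish are not known, so the difference between the lineages could not be tested. By size the cluster ranked 9 of 14, and its mean depth of 1380 UMIs (unique molecular identifiers, which count captured transcripts) per nucleus ranked 6 of 14, within a range of 684 to 1905. Counts were found for 16270 of its genes, and 8095 genes lay at the floor. Depth per fish is unknown.

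Marker genes of both red blood cells and endothelium were at their highest in the cluster, as its label says. Because the clusters were built from the same transcripts, the levels that follow are a description without a test. Of 16270 genes above the floor, 10.2% were at their highest in cluster 8 and 19% were at 2 times or more their mean level in the other 13 clusters. Of the 11 erythrocyte markers above the floor, 9 were highest in cluster 8 and 9 reached 2 times. Of the 24 endothelial markers above the floor, 19 were highest there and 21 reached 2 times. With the control lineage's calculated level standing for cluster 8, 8 erythrocyte and 16 endothelial markers were above every other cluster, and 8 and 19 reached 2 times the mean elsewhere. The 12 symbols with the highest ratio to the other clusters, among genes of at least 100 CPM, included genes known from both cell types. A table holds 1 mean per gene, so red cell nuclei and endothelial nuclei could not be separated within the cluster.

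The globin gene hbbe2, a beta globin of fish erythrocytes, stood at 49320 CPM in cluster 8 and took 4.33% of the summed level of all genes. In the other 13 clusters hbbe2 lay between 474 and 7344 CPM, so the next highest, cluster 13, was 6.72 times lower. With a pair of genes that have only identifiers in the files, ENSORLG00000003046 at 32466 CPM and ENSORLG00000027445 at 19465 CPM, it made up 8.89% of the cluster. These 3 transcripts were present in every other cluster as well. ENSORLG00000003046 stood at 0.66 times hbbe2 in cluster 8 and between 0.34 and 0.95 times hbbe2 elsewhere. ENSORLG00000027445 stood at 0.39 times hbbe2 in cluster 8 and between 0.12 and 0.35 times hbbe2 elsewhere. Whether their presence outside cluster 8 came from free RNA was not tested.

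Other erythrocyte genes were lower in level, and not all of them were as clearly placed. The gene alas2, whose product starts heme synthesis in erythroid cells, had 1060 CPM, which was 33.2 times its mean elsewhere. The carbonic anhydrase gene of fish red cells, cahz, had 900.2 CPM, or 32.9 times. The band 3 anion exchanger gene slc4a1a had 357 CPM, or 55.7 times, and the ammonia channel gene rhag had 165 CPM, or 12.5 times. In cluster 13 rhag had 107 CPM. Gb-alpha1.1, a globin by its symbol, had 178 CPM and a ratio of 71.3. The ankyrin gene ANK1, at 354 CPM and a ratio of 2.01, and the bisphosphoglycerate mutase gene bpgm, at 20.1 CPM and a ratio of 0.97, were not highest in cluster 8. Both aqp1a.1 and dmtn were highest there by little. For aqp1a.1 the level was 233 CPM, against 205 CPM in cluster 9, and for dmtn 160 CPM, against 144 CPM in cluster 1. The listed globin gene hbba1 was at the floor in cluster 8. The summed level of the erythrocyte list was 52952 CPM in cluster 8, against 8160 CPM in cluster 13 and a median of 1332 CPM over the other 13 clusters.

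Genes that supply heme and iron were placed less sharply, with 14 of 24 members highest in cluster 8 and 13 at 2 times or more. By the control lineage's calculated level, 9 were above every other cluster and 7 reached 2 times the mean elsewhere. The transferrin receptor gene tfr1a reached 315 CPM and 8.57 times, and the mitochondrial iron importer gene slc25a37 reached 99.4 CPM and 7.10 times. Among 18 erythroid regulators above the floor, 10 were highest in cluster 8. They included gata1a, the master transcription factor of the erythroid lineage, at 204 CPM and 25.7 times, and its cofactor gene zfpm1 at 541 CPM and 7.07 times. The repressor gene GFI1B reached 52.3 times at 83.1 CPM, and the erythropoietin receptor gene epor reached 36.6 times at 95.9 CPM.

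The endothelial side was led by the VEGF receptor genes. In cluster 8 kdr had 418 CPM, kdrl 351 CPM and flt1 234 CPM, which were 38.7, 34.5 and 49.1 times their means elsewhere. No other cluster exceeded 27.0 CPM for kdr, 38.9 CPM for kdrl or 24.6 CPM for flt1. The junction genes esama, at 484 CPM, and pecam1a, at 102 CPM, were 10.6 and 52.8 times their means elsewhere. The tight junction gene cldn5a, a marker of brain endothelium, had 195 CPM and a ratio of 32.6. Of the SoxF transcription factor genes that mark endothelium, sox17 had 98.7 CPM and sox18 had 23.6 CPM, at ratios of 27.1 and 96.2. The markers cldn5b, esm1 and s1pr1 were at the floor, and the apelin receptor gene aplnra had 2.11 CPM. The endothelial list summed to 2981 CPM in cluster 8, against 570.3 CPM in cluster 13 and a median of 199.5 CPM over the other clusters.

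**Figure D1:**
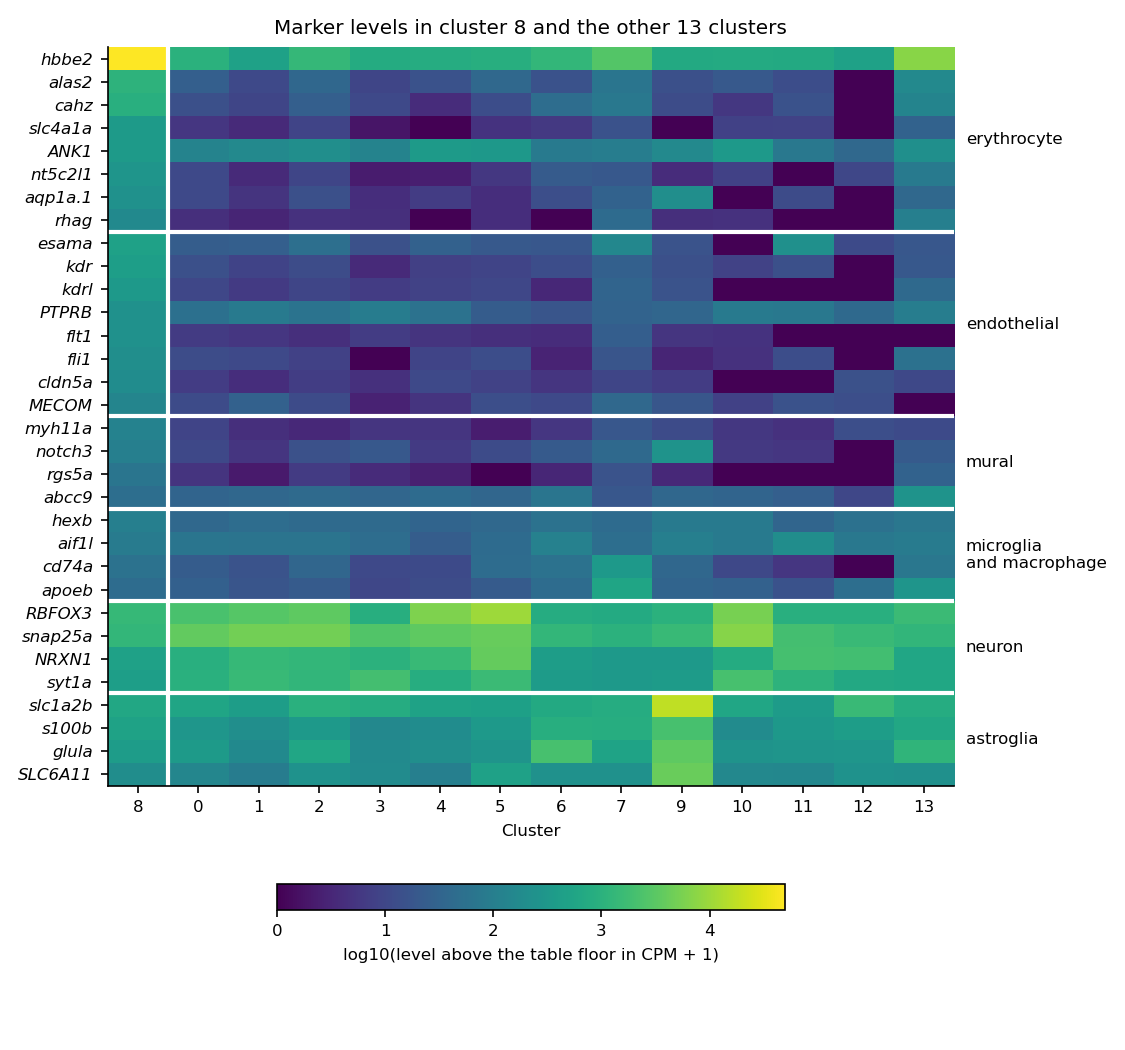
Levels of marker genes (rows) in cluster 8 (left column) and the other 13 clusters, as log10 of the level above the table floor in CPM plus 1, grouped by cell type list. The erythrocyte and endothelial rows are brightest in the cluster 8 column for most genes, for instance hbbe2 at 49320 CPM and kdr at 418 CPM, and the neuron and astroglia rows are brighter in other clusters.

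Genes of the barrier were split. Of 27 barrier and transport genes above the floor, 10 were highest in cluster 8 and 13 reached 2 times. The export pump genes abcb4 and abcg2a had 126 and 257 CPM, at ratios of 30.4 and 19.0. The vessel basement membrane collagen gene col4a1 had 271 CPM and a ratio of 17.5, and lef1, a nuclear effector of Wnt signaling, had 580 CPM and a ratio of 7.94. The monocarboxylate transporter gene slc16a1a had 205 CPM and a ratio of 35.6, and SLCO2A1, which encodes a prostaglandin transporter, had 197 CPM and a ratio of 35.4. The glucose transporter gene slc2a1a, a classic mark of the mammalian barrier, and both occludin genes, oclna and oclnb, were at the floor. The lipid transporter gene mfsd2ab had 14.2 CPM, 0.52 times its mean elsewhere.

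Markers of other cells that a vessel fragment could bring along were also measured. Mural cell genes, which mark smooth muscle and pericytes, summed to 503 CPM in cluster 8 and 514 CPM in cluster 13. In cluster 8 the smooth muscle myosin gene myh11a had 118 CPM at a ratio of 17.5, and rgs5a, a pericyte marker, had 67.0 CPM at a ratio of 13.7. The pericyte receptor gene pdgfrb had 16.9 CPM. Microglia and macrophage genes summed to 329 CPM, against 1052 CPM in cluster 7, with spi1b at the floor and csf1ra at 1.51 CPM. Fibroblast genes summed to 99.0 CPM, against 1815 CPM in cluster 13, with col1a1a and lum at the floor. The thrombocyte genes gp1bb and mpl were highest in cluster 8 but had only 26.5 and 13.7 CPM.

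Transcripts of neurons and glia were present without being raised. None of 15 neuron genes, 11 astroglia genes and 12 oligodendrocyte genes reached 2 times or was highest in cluster 8. The neuron list summed to 4831 CPM in cluster 8 and to 23018 CPM in cluster 5. The synaptic gene snap25a alone stood at 1304 CPM in cluster 8, 0.43 times its mean elsewhere. The astroglia list summed to 2187 CPM, against 29615 CPM in cluster 9. The keratin genes krt8, at 645 CPM, and krt18a.1, at 329 CPM, were highest in cluster 8, at ratios of 4.64 and 8.80, whereas krt5 and krt4 stood at 0.24 and 0.36 times their means elsewhere.

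Between the lineages, 33 of 24365 genes were called in the authors' deposited table of cluster 8, which is 0.135% of the genes. The BaP lineage was higher in 15 of them (0.0616%) and lower in 18 (0.0739%). Of the 18 lower genes, 10 were protein genes of the mitochondrial genome, and all 18 were also called lower in at least 1 other cluster. Of the 15 higher genes, 10 were called higher in no other cluster. Among these 10, the number of other clusters with a positive fold change ran from 3 for ENSORLG00000028040 to 11 of 13 for AUTS2. In each of the other 13 clusters, 0 to 73 of 24365 genes were called higher and 0 to 140 lower. Most genes were thus called in none of them. Clusters 12 and 13 had 0 called genes of any kind, so a lack of calls elsewhere does not show a change particular to cluster 8. By the mean of both lineages, 11 of the 15 were at their highest level in cluster 8, a ranking that the BaP lineage's own level raises. By the control lineage's level, 3 of these 11 were above every other cluster: mibp, tmem18 and ENSORLG00000028040. No member of the erythrocyte, heme, endothelial, barrier or mural lists was called. With 0.135% of all genes called, the lack of a call in lists this short says little about them. The tables hold means over nuclei. A higher or lower level thus cannot be told apart between another share of a cell type and another amount of RNA per nucleus.

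**Figure D2:**
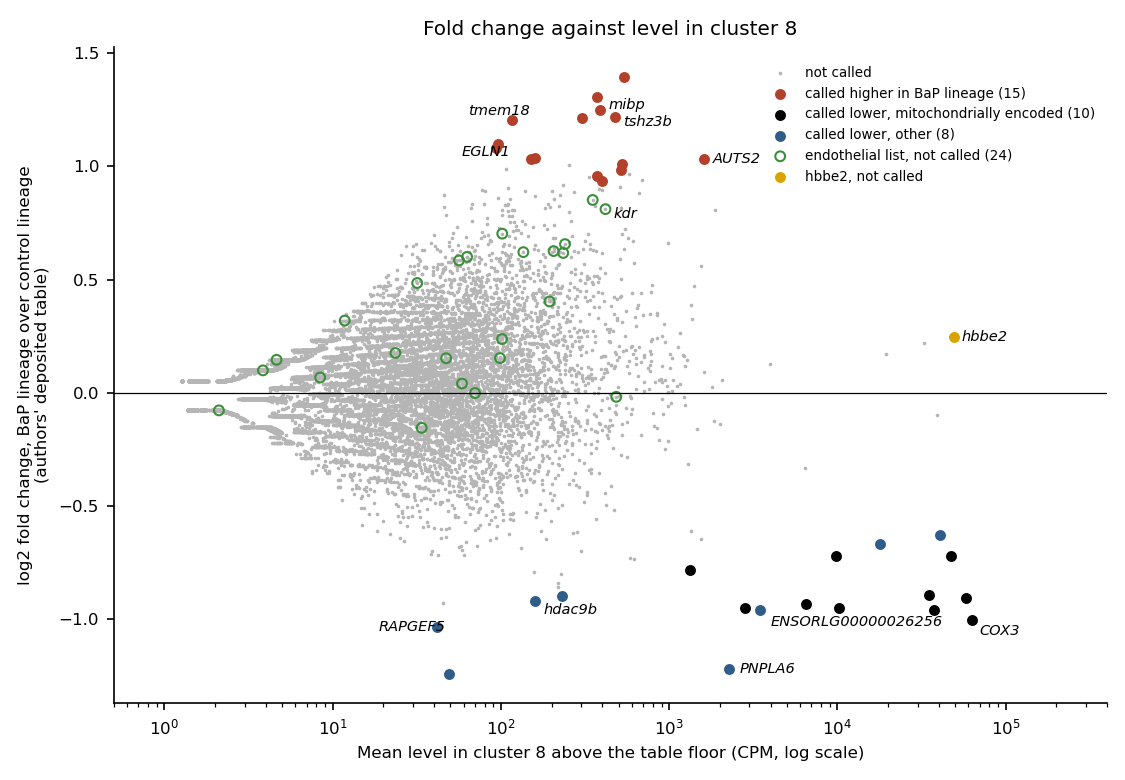
Log2 fold change of the BaP lineage over the control lineage in the authors' deposited table (vertical axis) against the mean level in cluster 8 in CPM (horizontal log axis), 1 point for each of 16270 genes above the floor. The 15 genes called higher lie between 0.94 and 1.40, the 10 mitochondrially encoded genes called lower lie at 1325 CPM or more, and hbbe2 lies at 0.24.

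Across all genes, the table leaned toward the BaP lineage. The median log2 fold change in the authors' deposited table was 0.05 over the 16270 genes above the floor, of which 9549 were positive. Among 3173 genes of at least 50 CPM by the mean of both lineages, which the BaP lineage's own level raises, 62.9% were positive. In this set 301 genes (9.49%) had a positive value at an unadjusted p under 0.05 and 88 (2.77%) a negative one, and over all genes above the floor the shares were 2.61% and 1.25%. The 13 mitochondrially encoded protein genes took a calculated 18.6% of the counts in the BaP lineage and 31.3% in the control lineage. The calculated levels do not sum to the same total in both lineages: 1.10e+06 CPM in the BaP lineage and 1.22e+06 CPM in the control lineage. Both sums exceed the total that CPM is scaled to, and the control lineage's does so by more. Relative to the summed levels of all other transcripts, every other gene's log2 ratio is lower by 0.09, and with the totals of the lineages taken as equal it is lower by 0.24. How much of each difference below moved with the mitochondrial share was not tested.

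The mitochondrial genome encodes 13 proteins of the respiratory chain and of ATP synthase, and all 13 genes were above the floor. They summed to 271918 CPM in cluster 8, against a median of 171548 CPM over the other clusters. Whether these transcripts came from the nuclei or from free RNA was not tested. In the BaP lineage 10 were called lower, with log2 fold changes of -1.01 to -0.72 in the authors' deposited table. COX3, a subunit of cytochrome c oxidase, had 45460 CPM in the BaP lineage and 91350 CPM in the control lineage. At the cluster's mean depth, taken for both lineages, this is a calculated 62.7 counts per BaP-lineage nucleus and 126 per control-lineage nucleus. The authors' deposited table gives COX3 a log2 fold change of -1.01, with an adjusted p of 2.45e-10. CYTB, a subunit of complex III, had 27388 CPM in the BaP lineage and 53372 CPM in the control lineage. ND4, a subunit of complex I, had 7544 CPM in the BaP lineage and 14684 CPM in the control lineage. ATP6 of ATP synthase had 26335 CPM in the BaP lineage and 49010 CPM in the control lineage. The genes called lower encode subunits of complexes I, III and IV and of ATP synthase.

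The other 3 mitochondrial genes had fewer counts and were not called. ATP8 had a log2 fold change of -0.69 and ND6 one of -0.49 in the authors' deposited table, both below 0. ND4L, with 114 CPM in the BaP lineage and 109 CPM in the control lineage, had one of 0.04 in the authors' deposited table. The same 10 genes had their highest level in cluster 7, and in cluster 8 they stood at 1.18 to 1.53 times their mean elsewhere. In the authors' deposited tables of the other clusters, COX3 was called lower in 9 of 13, with called values between -1.33 and -0.63. The clusters come from the same 6 fish, so their values are not independent of each other.

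Of the 8 other genes called lower, PNPLA6, which encodes a phospholipase known as neuropathy target esterase, had the most negative fold change as deposited of any called gene with a symbol. It had 1480 CPM in the BaP lineage and 3570 CPM in the control lineage. With a log2 fold change of -1.22, it reached an adjusted p of 1.85e-06 by the authors' deposited table. PNPLA6 was not a marker of the cluster: its ratio to the other clusters was 0.76. In the authors' deposited tables it was also called lower in clusters 0, 1, 2, 3 and 7, and its value in cluster 13 was 1.41, not called.

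The gene hdac9b, for a class IIa histone deacetylase, had 95.9 CPM in the BaP lineage and 262 CPM in the control lineage, a log2 fold change of -0.92 in the authors' deposited table at an adjusted p of 0.0427 and a calculated -1.45 without prior counts. The cyclin L1 gene ccnl1a, whose product acts in RNA splicing, had 150 CPM in the BaP lineage and 357 CPM in the control lineage, a log2 fold change of -0.90 in the authors' deposited table with an adjusted p of 0.0122. RAPGEF5, which encodes an activator of Rap GTPases, rested on a calculated 1.06 counts in the BaP lineage and 20.2 counts in the control lineage. In the authors' deposited table it stood at -1.04, with an adjusted p of 0.000833. All 3 genes were called lower in 4 or more other clusters in the authors' deposited tables.

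Of the 4 identifiers called lower, only ENSORLG00000026256 was a leading gene of cluster 8. It had 2516 CPM in the BaP lineage and 4988 CPM in the control lineage, and its level was 11.9 times its mean elsewhere. In log2 terms it stood at -0.96 in the authors' deposited table of cluster 8, with an adjusted p of 0.0388, and at -1.96 in that of cluster 7. It was negative in all 13 other clusters and called lower in 5 of them, clusters 0, 1, 2, 5 and 7. ENSORLG00000001764 had a calculated 0.257 counts in the BaP lineage and 24.8 counts in the control lineage. It was called lower only in cluster 8 and cluster 7, at -1.24 and -1.42 in the authors' deposited tables. ENSORLG00000021749 and ENSORLG00000021751 were abundant in every cluster, with 17972 and 40906 CPM in cluster 8. Their log2 fold changes in the authors' deposited table were -0.67 and -0.63. Like the mitochondrially encoded genes called lower, both had their highest level in cluster 7, and both were called lower in 8 other clusters. Whether they come from the mitochondrial genome is not known here, and they were counted with the other transcripts. The mitochondrial shares and the log2 ratios taken relative to other transcripts depend on this choice.

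**Figure D3:**
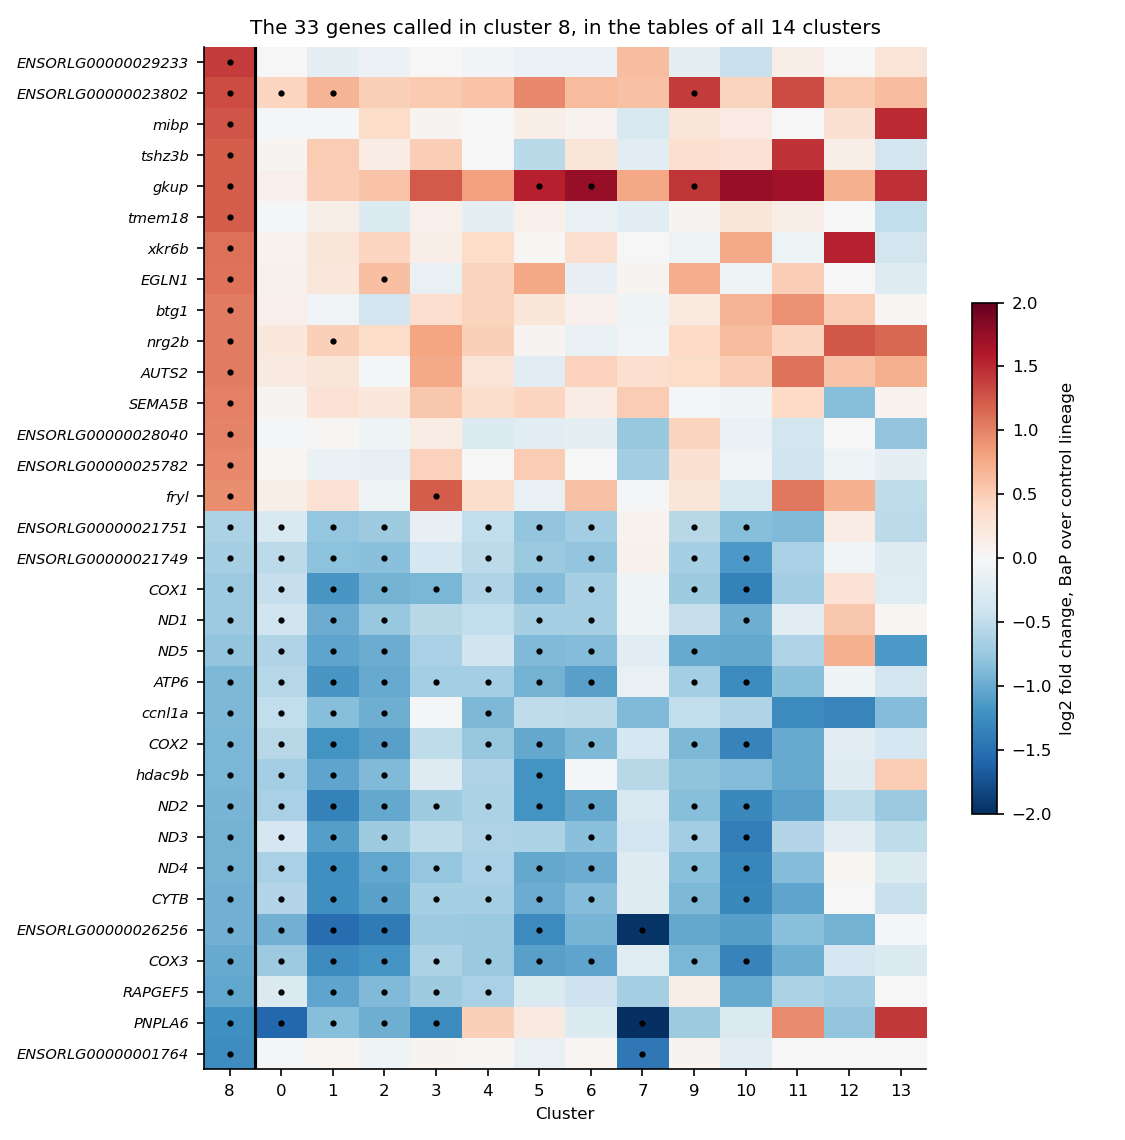
Log2 fold changes of the BaP lineage over the control lineage in the authors' deposited tables for the 33 genes called in cluster 8 (rows), in cluster 8 (left column) and the other 13 clusters, with a dot where the gene was called. The lower genes carry dots in 1 (ENSORLG00000001764) to 9 (COX3) of the other 13 columns. Of the 15 higher genes, 10 carry a dot in the cluster 8 column alone. In each other cluster, at most 73 of all 24365 genes were called higher. No gene was called in clusters 12 and 13, so their columns hold no dots.

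The genes called higher rested on a calculated 48.0 to 828 counts in the whole cluster and had log2 fold changes of 0.94 to 1.40 in the authors' deposited table. AUTS2, which encodes a nuclear regulator of neuronal development in mammals, was the most abundant. It had 2042 CPM in the BaP lineage and 953 CPM in the control lineage. The authors' deposited table gives it a log2 fold change of 1.03, with an adjusted p of 0.00251. The mean level of AUTS2 over both lineages was 2.11 times its mean elsewhere, and the control lineage's level was 1.24 times, below the 1226 CPM of cluster 11.

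The teashirt-type zinc finger gene tshz3b had 635 CPM in the BaP lineage and 221 CPM in the control lineage. Its log2 fold change in the authors' deposited table was 1.22, with an adjusted p of 0.00128. The gene mibp, named for a muscle protein that binds integrin, had 526 CPM in the BaP lineage and 168 CPM in the control lineage. For mibp the authors' deposited table gives 1.25 on the log2 scale, with an adjusted p of 0.00678. With a ratio of 20.4 from both lineages and 8.87 from the control lineage, mibp had the highest ratio of the called genes with a symbol. The fold change of mibp was 1.49 in cluster 13 and -0.30 in cluster 7 in the authors' deposited tables, neither called.

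EGLN1 encodes the prolyl hydroxylase that, when oxygen is present, marks hypoxia-inducible factor for destruction. It had 141 CPM in the BaP lineage and 19.0 CPM in the control lineage, from a calculated 44.2 counts in the BaP lineage and 3.74 in the control lineage. Its log2 fold change in the authors' deposited table was 1.08, with an adjusted p of 0.0057, and the gene was also called higher in cluster 2, at 0.60. Without prior counts the calculated log2 ratio of EGLN1 in cluster 8 was 2.90. The control lineage's level of EGLN1 was 0.31 times the mean elsewhere. This gene was the 1 call among 14 hypoxia genes above the floor. The endothelial hypoxia factor gene epas1b, highest in cluster 8 at 254 CPM, had 292 CPM in the BaP lineage and 196 CPM in the control lineage and was not called. In the authors' deposited table epas1b stood at 0.42 on the log2 scale. The median over the 14 genes was 0.07, beside 0.05 for all genes above the floor.

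tmem18, for a small protein of the nuclear envelope, had 175 CPM in the BaP lineage and 24.6 CPM in the control lineage, from a calculated 54.9 counts in the BaP lineage and 4.85 in the control lineage. For tmem18 the authors' deposited table gives 1.21 on the log2 scale, with an adjusted p of 0.0033, and the calculated ratio without prior counts was 2.83. The control lineage's level of tmem18 was 2.11 times the mean elsewhere. Semaphorin SEMA5B, of a family that guides axons and vessels, had 676 CPM in the BaP lineage and 290.0 CPM in the control lineage. The log2 fold change of SEMA5B in the authors' deposited table was 1.01. The furry-like gene fryl had 513 CPM in the BaP lineage and 225 CPM in the control lineage, and it was also called higher in cluster 3.

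Of the remaining symbols called higher, the antiproliferative gene btg1 had 223 CPM in the BaP lineage and 62.2 CPM in the control lineage. The neuregulin gene nrg2b, for a ligand of ErbB receptors, had 210 CPM in the BaP lineage and 56.7 CPM in the control lineage, and the XK-related gene xkr6b had 144 CPM in the BaP lineage and 18.9 CPM in the control lineage. gkup was higher in cluster 8 and also called higher in clusters 5, 6 and 9, with 413 CPM in the BaP lineage and 127 CPM in the control lineage of cluster 8. Over both lineages xkr6b and nrg2b were less abundant in cluster 8 than on average elsewhere, at ratios of 0.90 and 0.80. From the control lineage the ratios were 0.18 for xkr6b, 0.30 for nrg2b, 0.59 for btg1 and 0.75 for gkup. These control levels rested on a calculated 3.73, 11.2, 12.3 and 25.1 counts. In the authors' deposited table the log2 fold changes were 1.04 for btg1, 1.03 for nrg2b and 1.21 for gkup, with xkr6b between the values of btg1 and gkup. Without prior counts the calculated log2 ratios were 1.84 for btg1, 1.89 for nrg2b, 1.70 for gkup and 2.93 for xkr6b.

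Of the 4 identifiers called higher, ENSORLG00000029233 had a log2 fold change of 1.40 in the authors' deposited table, the highest there as deposited, with an adjusted p of 0.000641. Without prior counts its calculated log2 ratio was 1.72, below those of xkr6b, EGLN1 and tmem18. It had 739 CPM in the BaP lineage and 225 CPM in the control lineage, and its ratio to the mean elsewhere was 13.2 from both lineages and 5.51 from the control lineage. ENSORLG00000028040 had 666 CPM in the BaP lineage and 291 CPM in the control lineage, at ratios of 22.6 from both lineages and 12.7 from the control lineage. ENSORLG00000023802 was positive in all 13 other clusters and called higher in clusters 0, 1 and 9 in the authors' deposited tables. ENSORLG00000025782 had 479 CPM in the BaP lineage and 203 CPM in the control lineage. The largest adjusted p among the 15 higher genes was 0.0225, for ENSORLG00000028040 in the authors' deposited table.

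The genes nearest to the threshold were the phospholipase gene PLCB4, for which the authors' deposited table gives a log2 fold change of 0.99 and an adjusted p of 0.0534, and dab2ipb, with 0.95 and 0.0569. Of the genes in the barrier list, lef1 came closest, with 738 CPM in the BaP lineage and 333 CPM in the control lineage. Outside cluster 8, lef1 was highest in cluster 2, at 290 CPM. The log2 fold change of lef1 in the authors' deposited table of cluster 8 was 0.97, with an adjusted p of 0.0736. The collagen gene col4a1 followed, with 350 CPM in the BaP lineage and 148 CPM in the control lineage and, by the authors' deposited table, a log2 fold change of 0.88 at an adjusted p of 0.119. On the side called, hdac9b at 0.0427 and ENSORLG00000026256 at 0.0388 were the last inside.

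None of the 24 endothelial genes above the floor was called, yet 20 had a positive log2 fold change in the authors' deposited table. The median was 0.28, beside 0.05 for all genes above the floor. Of these 24 genes, 9 had an unadjusted p under 0.05, all 9 positive. All 9 were among the 15 members of at least 50 CPM by the mean of both lineages. In that range, 9.49% of all genes were higher at that p. The BaP lineage's own level raises that mean, and tie1, SHE and pecam1a, among the 9, were under 50 CPM in the control lineage. The range thus favors genes that are higher in the BaP lineage, and a range set by the control lineage's level was not tested. The receptor gene kdr had 521 CPM in the BaP lineage and 258 CPM in the control lineage. By the authors' deposited table it had a log2 fold change of 0.81 and an adjusted p of 0.561. The paralog kdrl had 444 CPM in the BaP lineage and 206 CPM in the control lineage, and the authors' deposited table gives it 0.85 on the log2 scale at an adjusted p of 0.494.

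pecam1a had 136 CPM in the BaP lineage and 48.5 CPM in the control lineage, a log2 fold change of 0.70 in the authors' deposited table, not called. PTPRB, which encodes a phosphatase of the vascular junction, had 295 CPM in the BaP lineage and 154 CPM in the control lineage, a log2 fold change of 0.66 in the authors' deposited table, not called. The list was uneven. esama had 151 counts in the BaP lineage and 96.8 in the control lineage, and its log2 fold change in the authors' deposited table was -0.02. The endothelial cadherin gene cdh5 had 60.5 CPM in the BaP lineage and 56.3 CPM in the control lineage. plvapa, for a protein of fenestrated vessels, had 70.2 CPM in the BaP lineage and 70.4 CPM in the control lineage. Without prior counts, 15 of 18 endothelial genes with enough counts were positive relative to the summed levels of other than mitochondrial transcripts, with a median of 0.81. With equal totals 14 were positive, with a median of 0.66. Over all genes of at least 50 CPM, the median without prior counts and without scaling was 0.17.

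Of 11 erythrocyte genes above the floor, none was called, and 7 were positive and 4 negative in the authors' deposited table, with a median of 0.24. Without prior counts, 6 were positive relative to the summed levels of other than mitochondrial transcripts, with a median of 0.15. With equal totals 5 were positive, with a median of -0.00023. Whether the erythrocyte and endothelial lists differ from each other was not tested. The shares of red cell and endothelial nuclei in each lineage are not known. hbbe2 had 52631 CPM in the BaP lineage and 44433 CPM in the control lineage. At the cluster's mean depth, taken for both lineages, this is a calculated 72.6 counts per BaP-lineage nucleus and 61.3 per control-lineage nucleus. The authors' deposited table gives hbbe2 a log2 fold change of 0.24, not called. alas2 had 1080 CPM in the BaP lineage and 1035 CPM in the control lineage, and cahz had 896 CPM in the BaP lineage and 914 CPM in the control lineage. slc4a1a had 416 CPM in the BaP lineage and 264 CPM in the control lineage, a log2 fold change of 0.51 in the authors' deposited table, not called. The members with an unadjusted p under 0.05 were the spectrin gene sptb, at 0.61, and the nucleotidase gene nt5c2l1, at 0.53 in the authors' deposited table.

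**Figure D4:**
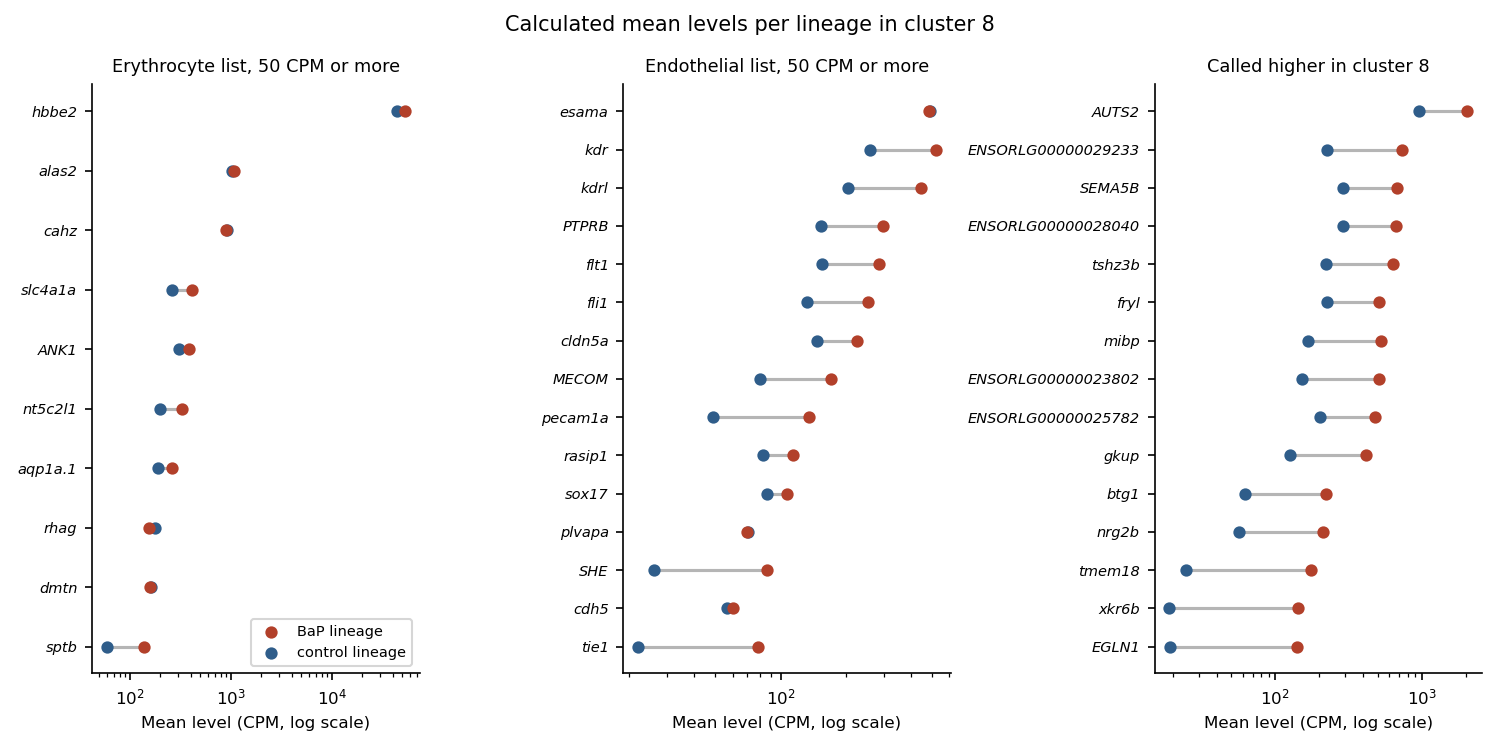
Calculated mean levels in cluster 8 in CPM (log axis) of erythrocyte list genes, endothelial list genes and the 15 genes called higher, with BaP-lineage means in red and control-lineage means in blue and no error bars because no value per fish is known. Points nearly coincide for alas2, cahz and esama, and they lie apart for kdr (521 CPM in the BaP lineage, 258 CPM in the control lineage) and EGLN1 (141 CPM in the BaP lineage, 19.0 CPM in the control lineage).

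The globin gene hbbe2 and the unnamed gene ENSORLG00000027445 gave other values outside cluster 8. In the authors' deposited tables hbbe2 was called lower in the BaP lineage in clusters 0, 1 and 7, at -0.92, -0.89 and -1.73. ENSORLG00000027445 was called lower in 5 of the other 13 clusters and had a log2 fold change of 0.17, not called, in cluster 8. Over the other 13 clusters the log2 fold change of hbbe2 in the authors' deposited tables ran from -2.59 in cluster 12 to 1.27 in cluster 11, neither called. kdr was called in none of the other clusters, where its fold changes in the authors' deposited tables ran from -0.42 to 0.36. Whether the fold changes of cluster 8 differ from those of other clusters, here or for any gene above, was not tested.

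In the heme and iron list, tfr1a, which takes up transferrin-bound iron, had 384 CPM in the BaP lineage and 208 CPM in the control lineage, a log2 fold change of 0.67 in the authors' deposited table at an unadjusted p under 0.05, not called. urod and fech, for late steps of heme synthesis, had values of 0.60 and 0.54 there at the same level, and ppox, for a step between them, had -0.41. Of 24 members, 18 were positive, with a median of 0.08, beside 9549 positive among all 16270 genes above the floor. Of the 13 members with enough counts, 7 were positive relative to the summed levels of other than mitochondrial transcripts and 6 with equal totals. Among erythroid regulators, zfpm1 had 643 CPM in the BaP lineage and 382 CPM in the control lineage. GFI1B had 60.4 CPM in the BaP lineage and 120 CPM in the control lineage. Their log2 fold changes in the authors' deposited table were 0.63 and -0.48, neither called. gata1a had 237 CPM in the BaP lineage and 152 CPM in the control lineage, also not called.

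The barrier list held both directions. Besides lef1 and col4a1, the laminin gene lamc1 had a calculated 47.2 counts in the BaP lineage and 9.87 in the control lineage, and the junction gene CGNL1 had 254 CPM in the BaP lineage and 124 CPM in the control lineage. Their log2 fold changes in the authors' deposited table were 0.78 and 0.68, not called. slc16a1a had 169 CPM in the BaP lineage and 265 CPM in the control lineage, a log2 fold change of -0.45 in the authors' deposited table, not called. The export pump gene abcg2a had 281 CPM in the BaP lineage and 222 CPM in the control lineage. Of 27 members 18 were positive, with a median of 0.12, beside 9549 positive among all 16270 genes above the floor.

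Markers of the other cells showed no call either, beside 0.135% of all genes called. In the mural list, notch3 had a log2 fold change of 0.66 and acta2, for smooth muscle actin, one of -0.52 in the authors' deposited table, at unadjusted p under 0.05, and the summed level was 511 CPM in the BaP lineage and 496 CPM in the control lineage. The astroglia list summed to 2514 CPM in the BaP lineage and 1686 CPM in the control lineage, and its median of 0.28 equalled that of the endothelial list to 2 decimals. Its glutamate transporter gene slc1a2b had 823 CPM in the BaP lineage and 405 CPM in the control lineage, a log2 fold change of 0.88 in the authors' deposited table, not called. The neuron list summed to 4877 CPM in the BaP lineage and 4795 CPM in the control lineage, with no member at an unadjusted p under 0.05. The microglia and macrophage list summed to 345 CPM in the BaP lineage and 307 CPM in the control lineage. The part of other cells' transcripts in the values of the endothelial genes was not tested.

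**Figure D5:**
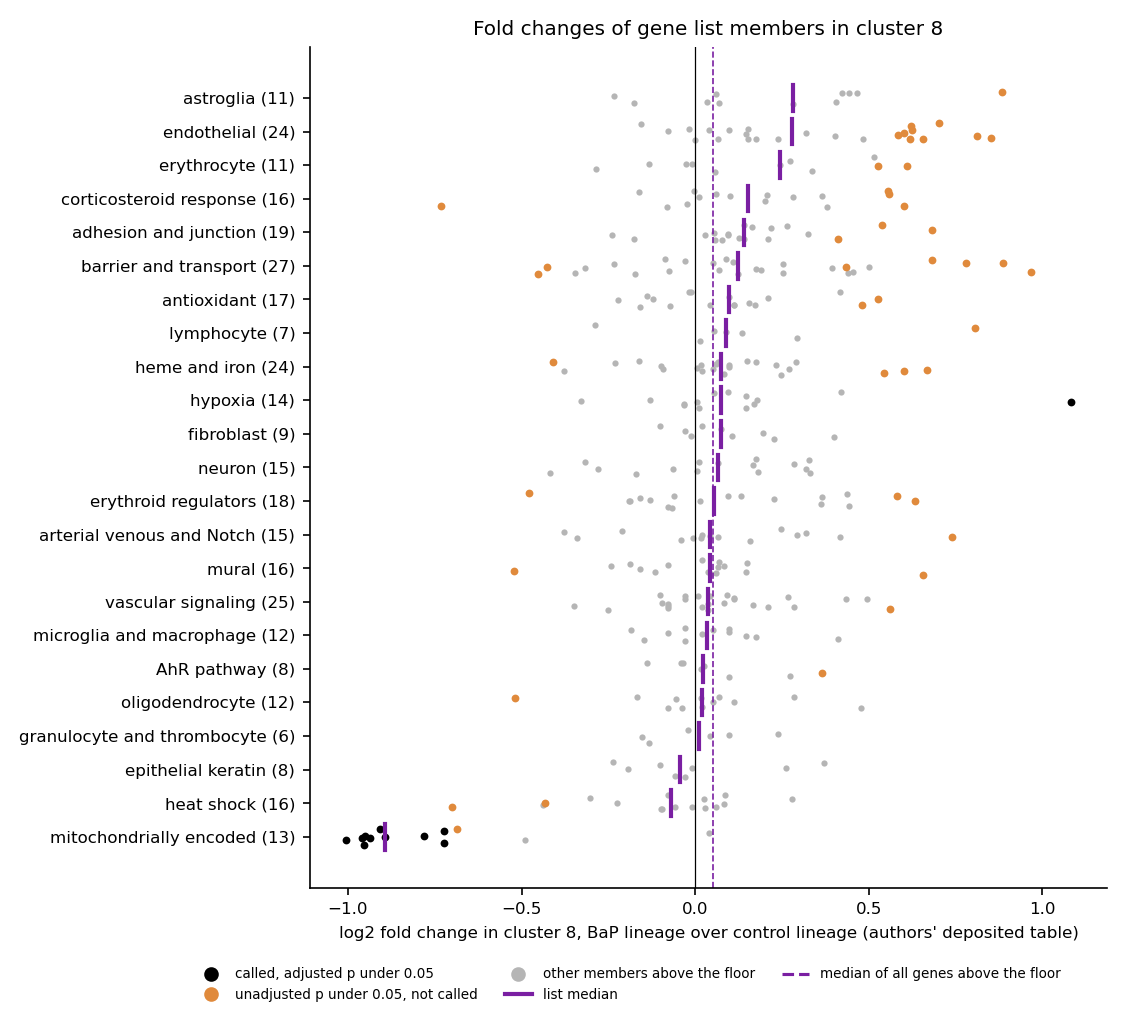
Log2 fold changes of the BaP lineage over the control lineage in the authors' deposited table of cluster 8 for members of 23 gene lists above the floor (numbers in brackets), 1 point per gene, with list medians as bars and the median of all genes above the floor, 0.05, as a dashed line. The mitochondrially encoded list stands at a median of -0.89 with 10 called genes, and EGLN1 in the hypoxia list is the 1 other called point.

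Lists tied to the exposure and to stress held no further call, beside 0.135% of all genes called. In the aryl hydrocarbon receptor (AhR) pathway, through which BaP induces its own metabolism, the target gene cyp1a had 16.1 CPM in the BaP lineage and 14.8 CPM in the control lineage. cyp1b1 had a calculated 8.16 counts in the BaP lineage and 0.0064 in the control lineage, which is 26.1 and 0.032 CPM, beside a mean of 0.26 CPM in the other clusters. cyp1b1 had a log2 fold change of 0.36 in the authors' deposited table, at an unadjusted p of 0.0490, not called. nqo1 was at the floor. Among genes that respond to corticosteroids, the metallothionein gene mt2 had 475 CPM in the BaP lineage and 849 CPM in the control lineage, a log2 fold change of -0.73 in the authors' deposited table, not called. Both glucocorticoid receptor symbols, NR3C1 and nr3c1, had positive values, 0.60 and 0.55, there at unadjusted p under 0.05. The chaperone gene hsp90aa1.2 had 225 CPM in the BaP lineage and 422 CPM in the control lineage, a log2 fold change of -0.70 in the authors' deposited table, not called.

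Vascular signaling genes and genes of arterial, venous and Notch identity gave no call among 25 and 15 members above the floor. With 0.135% of all genes called, the lack of a call in lists this short says little. The median was 0.04 for each list. In the vascular signaling list, the member with an unadjusted p under 0.05 was id1, a target of bone morphogenetic protein signaling, at 0.56 in the authors' deposited table. The Notch ligand gene dll4, known from sprouting tip cells, had a calculated 6.36 counts in the BaP lineage and 0 in the control lineage and a p above 0.05. In the lymphocyte list, ets1, which endothelial cells also express, had 158 CPM in the BaP lineage and 51.6 CPM in the control lineage, a log2 fold change of 0.81 in the authors' deposited table, not called. In the antioxidant list gsr, for glutathione reductase, had 0.53, and in the adhesion list the polarity gene pard3ab had 0.68 and mcamb, for an endothelial adhesion molecule, 0.54, none called.

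The genes with the highest ratios to the other clusters reach beyond the lists. Of 1448 genes of at least 100 CPM by the mean of both lineages, 68 had 10 times or more their mean level elsewhere, and 45 of these have a symbol. Because the BaP lineage's own level raises that mean, no fold change over the set is given. Named after their values were seen, members of the set outside the lists included the chemokine gene cxcl12b, at 221 CPM and 23.6 times, and mb, for myoglobin, at 372 CPM and 28.4 times. More abundant symbols of the set were mibp2, at 2001 CPM and 24.7 times, and prf1.5, at 1857 CPM and 28.5 times. Also in the set were si:ch211-103n10.5, at 1464 CPM and 37.1 times, and tmem205, at 120 CPM and 105.5 times.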

How the data were processed

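Nuclei from whole brains were profiled with 10x Chromium 3' libraries, 1 per fish, in 1 sequencing batch per the labels. The submitters' processing notes name Cell Ranger. How nuclei were filtered and clustered, how doublets and free RNA were treated and which tool compared the lineages is not given in the sources used here. The authors deposited 14 tables whose columns, per the file headers, are a log2 fold change, a log2 mean CPM, a p-value and a false discovery rate. No test was added. The level is 2 to the power of the deposited log2 CPM minus that of the table's floor. Numbers of nuclei, counts and CPM per lineage were calculated from the floor, from genes with 1 count and from a prior count of 2 for levels and 0.125 for fold changes. It rests on an assumed exact test for negative-binomial counts of single nuclei, stated by no source. The arithmetic was checked on simulated data that made the same assumptions. The calculated 7512 nuclei are fewer than the labels' target for a single sample. Log2 ratios without prior counts need at least 3 counts per lineage. The deposited false discovery rates match a Benjamini-Hochberg adjustment across the 24365 genes.

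The cluster, the 23 gene lists and the rule for named genes were chosen with earlier results of these data known. The rule takes every called gene, the 12 symbols with the highest ratio at 100 CPM or more, the given markers hbbe2, alas2, cahz, slc4a1a and kdr, up to 8 abundant members of the erythrocyte and endothelial lists, and up to 4 members per list with an unadjusted p under 0.05. Not all of these are printed, and 1 result is not reported here. Other list members are given as levels or to show the spread of a list. Matching of symbols ignored case and a final a or b. Of the genes, 14025 have a symbol, and 10340 have only an identifier that has no match in the RefSeq gene table (assembly ASM223467v1). Coordinates are left out, since that build is not the authors'. The alternatives tried were other thresholds and adjustments, a fold change minimum, a filter on level, other marker references and list statistics, no prior count and, chosen after seeing the data, leaving out or rescaling for the mitochondrial genes. Calculations used Python 3.11 with numpy 2.4.6, pandas 2.3.3 and scipy 1.17.1.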

Additional observations from a re-analysis of the deposited data

How the results depend on the processing

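The number of genes called higher, 15, was 9 at an adjusted p under 0.01, 4 under a Bonferroni adjustment and 25 among genes above the median level, and it lay between 12 and 20 under the other alternatives. The number called lower, 18, was 4 where a size of 1 or more on the log2 scale was also required. It was 6 with the listed mitochondrial protein genes left out and the rest adjusted anew (chosen after seeing the data). It lay between 14 and 18 otherwise. With the floor left in the levels, 1 erythrocyte marker and 0 endothelial markers reached 2 times, against 9 and 21, because the floor is then part of every level. The median log2 fold change of the endothelial list, 0.28, was 0.48 for members above the median level, 0.90 without prior counts, 0.81 when both lineages were also scaled to their summed levels other than mitochondrial and 0.66 when they were scaled so with equal totals. Over all genes of at least 50 CPM, the median was 0.17 without prior counts and without scaling. Both scalings were chosen after seeing the data. For the erythrocyte list, 0.24 as deposited and without prior counts, they gave 0.15 and -0.00023. For the mitochondrially encoded list, -0.89 became -0.77 as a mean, which takes in the low-count genes ATP8, ND4L and ND6; the cause of the other changes was not tested. Among 73 named genes, 65 had a value without prior counts. Taking out the prior count cannot change a sign by its arithmetic, so the 0 sign changes among these 65 are no check. Of 55 genes, 1 changed sign under the summed-level scaling and 2 with equal totals. Without prior counts 24 of the 73 moved by over 1.5 times, among them 6 of 31 called genes: EGLN1, tmem18, xkr6b, btg1, nrg2b and hdac9b. No paired analysis was possible because the tables hold no values per fish, and for the same reason leaving out a fish was not run. Depth limits the genes with few counts: a gene with under 3 counts in a lineage has no fold change here without a prior count.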
